A study of Mus musculus with 124 samples.

Results

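The 8 genes Tspan8, Plac1, Gsta1, Csta1, BC051665, Gulp1, Adam19 and Akr1c21 were described in mouse blastocysts from hCG-exposed and control (Ctrl) females. They were picked by symbol from the 25239 genes of the blastocyst table because their falls in hCG blastocysts were among the largest there. Their difference between hCG and Ctrl blastocysts is therefore a description and carries no test. All 8 were in the table, and all 8 passed the filter on low values that kept 10848 genes.

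The hCG group came from females in natural estrus that received 7.5 IU of human chorionic gonadotropin (hCG, the hormone that triggers ovulation) by intraperitoneal injection, with no priming by another gonadotropin. Ctrl females were in estrus and received no hCG, and those used for oocytes were each kept with a vasectomised male. Oocytes were taken 14 h after hCG or, in Ctrl, once a vaginal plug was seen. Blastocysts were collected at embryonic day 3.5 by flushing the uterine horns, and the dorsal dentate gyrus (dDG) was taken from mice of 8 weeks. RNA was read in 28 hCG and 28 Ctrl blastocyst libraries, 6 hCG and 6 Ctrl oocyte libraries and 6 hCG and 6 Ctrl dDG libraries. No strain, mutation or other agent is named for either group, and nothing says how many females gave the blastocysts, so the p-values below measure the spread between libraries.

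A mouse blastocyst has an outer epithelium, the trophectoderm, and an inner cell mass that splits into epiblast and primitive endoderm. The trophectoderm pumps fluid into the cavity, attaches to the uterus and gives rise to the trophoblast of the placenta. It forms under early regulators such as Cdx2, Tead4 and Gata3, and its later maturation brings on placental and secretory genes, among them Plac1. Of the 8 genes, Tspan8 encodes a tetraspanin of the cell surface and Plac1 an X-linked protein of the trophoblast that a normal mouse placenta requires. Gsta1 and Akr1c21 encode enzymes, an alpha-class glutathione transferase and an aldo-keto reductase that acts on steroids. Csta1 encodes a stefin, an inhibitor of cysteine proteases, Adam19 a membrane-bound metalloprotease and Gulp1 an adaptor first studied in the engulfment of dying cells. No role is given here for BC051665, which lies beside the cathepsin-like gene Ctsll3.

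The start regions of 5 members are shown first, because all pairs among them were correlated across hCG libraries, and 6 of their 10 pairs across Ctrl libraries. These 5 were singled out after the correlations, given further on, had been seen. These are RefSeq sequences of build GRCm38.p6, 250 bases before to 50 after each transcription start, and 8 of 8 members were found in that table, with 11 starts. The gene spans of Tspan8 and Gulp1 given further on begin upstream of their windows, at 115816817 for Tspan8 and 44551380 for Gulp1. Capitals mark matches, on either strand, to words bound by trophectoderm factors: AGATAA and its variant AGATAG, then TGATAA and its variant TGATAG, for GATA factors. For TEAD factors the word was GGAATG, for TFAP2 factors GCCNNNGGC and for CDX factors TTTATNG. The regions shown are chr10:115817034-115817333 on the plus strand (Tspan8), chrX:53240061-53240360 and chrX:53114356-53114655 on the minus strand (the outer and the inner start of Plac1), chr9:78230419-78230718 on the plus strand (Gsta1), chr13:60786315-60786614 on the minus strand (BC051665) and chr1:44551421-44551720 on the plus strand (Gulp1).
Tspan8: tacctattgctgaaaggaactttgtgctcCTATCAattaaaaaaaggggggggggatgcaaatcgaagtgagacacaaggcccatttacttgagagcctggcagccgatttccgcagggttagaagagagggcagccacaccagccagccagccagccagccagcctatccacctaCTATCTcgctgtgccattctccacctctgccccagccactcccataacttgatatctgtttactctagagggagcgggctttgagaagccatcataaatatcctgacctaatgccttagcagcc
Plac1 outer start: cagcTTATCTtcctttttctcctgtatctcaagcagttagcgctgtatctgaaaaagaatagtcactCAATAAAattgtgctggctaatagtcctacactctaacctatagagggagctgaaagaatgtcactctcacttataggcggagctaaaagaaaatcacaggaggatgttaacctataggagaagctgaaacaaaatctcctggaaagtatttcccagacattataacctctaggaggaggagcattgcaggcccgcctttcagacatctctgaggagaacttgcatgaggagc
Plac1 inner start: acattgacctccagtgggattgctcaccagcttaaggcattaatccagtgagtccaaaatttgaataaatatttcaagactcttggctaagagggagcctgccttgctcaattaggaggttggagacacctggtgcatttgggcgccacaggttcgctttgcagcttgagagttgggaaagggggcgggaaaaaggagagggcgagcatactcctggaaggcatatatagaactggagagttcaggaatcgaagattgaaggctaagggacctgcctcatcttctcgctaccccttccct
Gsta1: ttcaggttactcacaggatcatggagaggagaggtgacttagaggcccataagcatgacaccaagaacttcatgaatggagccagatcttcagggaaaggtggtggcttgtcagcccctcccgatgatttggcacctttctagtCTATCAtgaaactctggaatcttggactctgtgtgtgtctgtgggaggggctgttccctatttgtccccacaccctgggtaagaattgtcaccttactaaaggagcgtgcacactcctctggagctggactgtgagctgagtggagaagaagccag
BC051665: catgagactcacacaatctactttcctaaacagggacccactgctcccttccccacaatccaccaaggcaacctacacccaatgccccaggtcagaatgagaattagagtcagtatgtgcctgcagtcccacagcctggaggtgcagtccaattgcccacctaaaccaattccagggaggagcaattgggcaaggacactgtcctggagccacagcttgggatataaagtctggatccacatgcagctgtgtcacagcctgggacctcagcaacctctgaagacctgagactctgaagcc
Gulp1: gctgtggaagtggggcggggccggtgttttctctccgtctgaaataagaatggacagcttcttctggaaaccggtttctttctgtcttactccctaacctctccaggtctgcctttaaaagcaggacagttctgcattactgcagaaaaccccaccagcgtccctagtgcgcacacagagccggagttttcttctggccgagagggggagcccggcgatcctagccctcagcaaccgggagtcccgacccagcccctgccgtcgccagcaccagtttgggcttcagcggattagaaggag

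The 5 genes shared no marked word. Tspan8 held 2 GATA words, Gsta1 and the outer start of Plac1 held 1 each, and the outer start of Plac1 also held 1 CDX word. The inner start of Plac1, BC051665 and Gulp1 held no match to any of the 4 motifs in these windows. Over all 11 member starts, 4 held a GATA word, 2 a TEAD word, 1 a TFAP2 word and 2 a CDX word, and no match overlapped another. Of all 32851 RefSeq start regions of the same length, 29.8% held a GATA word, 14.7% a TEAD word, 16.6% a TFAP2 word and 10.9% a CDX word, and of the 11132 starts of genes tested in blastocysts 18.4%, 12%, 25.1% and 6.5% did, in the same order. Base composition also varied among the members, from 37.3% G and C for Akr1c21 to 60.3% at a start of Adam19, with a median of 51.0%, against a median of 60.7% over the starts of those tested genes. The Gulp1 region held 15 CpG pairs and the BC051665 region 0. A match to a word is a description and not a bound site.

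Levels are given as CPM, reads scaled to a common library total, which serve to compare a gene between libraries and not one gene with another, since they are not divided by gene length. Fold changes and slopes were computed on log2(CPM + 1) after TMM scaling (a factor per library that lines up the bulk of genes), so the change of a low gene is understated. Estimated depth was 4263370 to 9259360 reads in hCG and 3043230 to 10859400 reads in Ctrl blastocyst libraries, so 3 reads, the limit that a value of 0 allows, correspond to 0.276 to 0.986 CPM. Intervals of that kind cover counting error only. The median number of genes detected was 13591 in hCG and 13144 in Ctrl libraries. Libraries 1, 3, 4, 22 and 23 of the hCG group held both Xist, the transcript of the inactive X chromosome, at 50 CPM or more and Y-linked transcripts at 10 CPM or more, and 0 Ctrl libraries did. The falls, slopes, pair correlations and the counts of some of the lists are given with and without these 5 libraries. Y-linked transcripts were present in 20 of 28 hCG and 19 of 28 Ctrl libraries.

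The labelled material held the RNA of a blastocyst in both groups. The summed level of 8 trophectoderm markers (Cdx2, Gata3, Eomes, Krt8, Krt18, Tead4, Tfap2c and Hand1) was 2300 to 8534 CPM in hCG and 1697 to 11930 CPM in Ctrl libraries, with medians of 4746 CPM in hCG and 4872 CPM in Ctrl. Single markers went both ways. The median of Gata3 was 1657 CPM in hCG and 1190 CPM in Ctrl, that of Krt18 1988 CPM in hCG and 2467 CPM in Ctrl. Eomes had medians of 41.07 CPM in hCG and 61.42 CPM in Ctrl. The summed level of 5 inner cell mass markers was 111.7 to 740.7 CPM in hCG (median 353.1) and 144.9 to 506.2 CPM in Ctrl libraries (median 271.6). Primitive endoderm markers summed to a median of 149.1 CPM in hCG and 148.6 CPM in Ctrl libraries, and 6 markers of uterus, stroma and blood to 37.88 CPM in hCG and 31.01 CPM in Ctrl. Of those 6, the leukocyte gene Ptprc reached at most 0.188 CPM in hCG libraries and was at 0 in every Ctrl library. Others of the 6 reached more, such as Hba-a1, at up to 164 CPM in hCG and 116.5 CPM in Ctrl libraries. Pecam1 had medians of 27.29 CPM in hCG and 22.21 CPM in Ctrl. The sum of the 6 reached 190.2 CPM in hCG and 139.6 CPM in Ctrl libraries, and a share of maternal RNA was not tested. Each library mixes the cell types of a blastocyst, so fewer trophectoderm cells and less RNA per cell cannot be told apart, and that the 8 genes are trophectoderm genes rests on background and not on these data.

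All 8 genes were called lower in hCG blastocysts, where 7.57% of all genes tested were. They were chosen for large falls there, so this count is a description. The fall ran from -1.12 for Akr1c21 to -1.998 for BC051665 on the log2 scale, with a median of -1.20, while the median of all genes tested was 0.02. The median level in hCG libraries was between 51.4% (Tspan8) and 80.0% (Akr1c21) lower than in Ctrl libraries. Between 21 and 26 of 28 hCG libraries lay below the Ctrl median, and for every member the ranges of the groups overlapped.

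**Figure D1:**
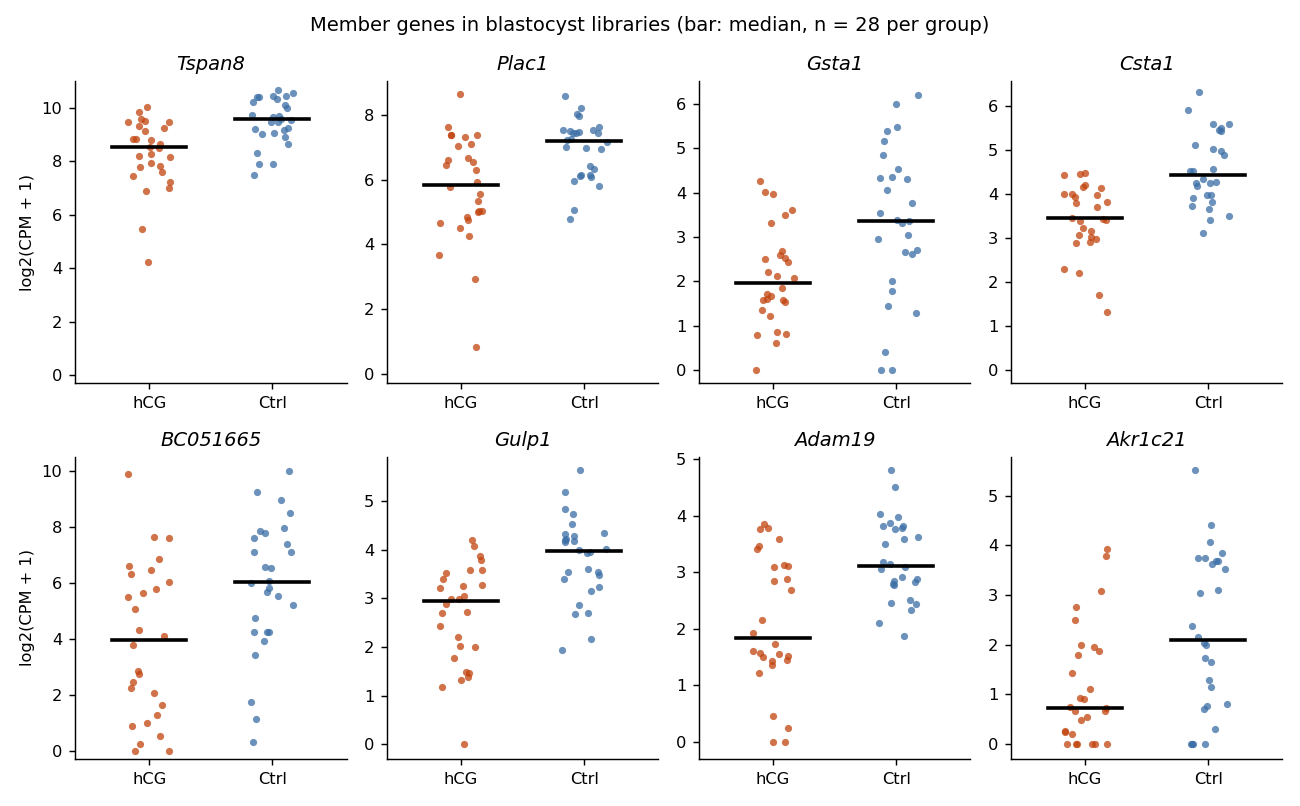
Levels of the 8 genes as log2(CPM + 1), with 1 panel per gene, 28 hCG libraries on the left and 28 Ctrl libraries on the right, 1 point per library and a bar at the median. The median of every gene is lower in hCG, by 51.4% for Tspan8 and 80.0% for Akr1c21 in CPM, and the ranges overlap in all 8 panels.

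The surface and trophoblast genes differed in how far the groups overlapped. Tspan8 (chromosome 10, 115816817 to 115849893) ranged from 17.6 CPM over a median of 368 to 1042 CPM in hCG libraries, and from 177 over 757 to 1637 CPM in Ctrl libraries. Its mean was 412 ± 269 CPM in hCG and 830 ± 422 CPM in Ctrl (SD, n = 28 each), a log2 fold change of -1.24 ± 0.30 (SE). Low values in hCG reached past the Ctrl range, with 6 hCG libraries below the lowest Ctrl library, and 9 Ctrl libraries lay above the highest hCG library. Plac1 (chromosome X, 53069993 to 53240110) ranged from 0.757 over 56.8 to 406 CPM in hCG libraries, and from 26.8 over 147 to 389 CPM in Ctrl libraries (-1.24 ± 0.36). Here 7 hCG libraries were below the lowest Ctrl library, but the highest value of all 56 belonged to hCG library 16, so the groups differed at the low end and shared the high end.

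The enzyme genes and the protease inhibitor were lower at the high end too. Gsta1 (chromosome 9, 78230669 to 78242683) ranged from 0 over 2.89 to 18.02 CPM in hCG libraries, and from 0 over 9.31 to 72.7 CPM in Ctrl libraries (-1.22 ± 0.37). It was at 0 in 1 hCG and 2 Ctrl libraries, and 10 Ctrl libraries exceeded every hCG library. Akr1c21 (chromosome 13, 4574075 to 4586543) ranged from 0 over 0.660 to 14.1 CPM in hCG libraries, and from 0 over 3.30 to 44.5 CPM in Ctrl libraries (-1.12 ± 0.37). Its hCG median lay at the level of 3 reads, and it was at 0 in 6 hCG and 4 Ctrl libraries, so differences among its lowest libraries were not detectable at this depth. Csta1 (chromosome 16, 36119946 to 36131189) ranged from 1.497 over 9.91 to 21.3 CPM in hCG libraries, and from 7.69 over 20.53 to 78.9 CPM in Ctrl libraries (-1.18 ± 0.22). With 14 Ctrl libraries above every hCG library and 9 hCG libraries below every Ctrl library, its groups overlapped least at the high end.

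BC051665 (chromosome 13, 60781887 to 60786364) had the widest range, from 0 over 14.4 to 937 CPM in hCG libraries and from 0.220 over 64.1 to 1022 CPM in Ctrl libraries (-1.998 ± 0.69). The SD of its log2 values was 2.74 in hCG and 2.39 in Ctrl, against 0.820 to 1.67 in hCG and 0.679 to 1.70 in Ctrl for the other 7. The highest hCG value belonged to library 16 again. Gulp1 (chromosome 1, 44551380 to 44796838) ranged from 0 over 6.67 to 17.5 CPM in hCG libraries, and from 2.81 over 14.7 to 48.6 CPM in Ctrl libraries (-1.19 ± 0.25), and 26 of 28 hCG libraries lay below the Ctrl median. Adam19 (chromosome 11, 46054502 to 46147347) ranged from 0 over 2.57 to 13.5 CPM in hCG libraries, and from 2.66 over 7.65 to 26.9 CPM in Ctrl libraries (-1.13 ± 0.25). For Adam19, 14 of 28 hCG libraries lay below the lowest Ctrl library, and the other 14 lay inside the Ctrl range.

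Leaving out the 5 hCG libraries with Xist and Y-linked transcripts gave falls of -0.92 (Plac1) to -1.72 (BC051665) over the 8 genes, and 4 of 8 then passed the threshold that had chosen them. For Plac1 the 5 libraries held 0.757 to 60.1 CPM (median 30.9) and the other 23 hCG libraries 6.65 to 406 CPM (median 87.9). For Adam19 their median was the higher, at 6.32 CPM, against 2.31 CPM in the other hCG libraries. With a covariate for how many genes a library detected, the falls ran from -0.71 (Akr1c21) to -2.40 (BC051665).

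Among genes called lower with a mean of at least 5 CPM and at least 75% of hCG libraries below the Ctrl median, ranked by the size of the fall, 4 genes outside the 8 stood among or above them. They were Spp1, which encodes the secreted adhesion protein osteopontin (-2.16 ± 0.54), the pseudogene Ndufs5-ps (-1.44 ± 0.34), Gm3776 (-1.31 ± 0.31) and 4930486L24Rik (-1.27 ± 0.28). The next genes below Adam19 were B3gnt5 (-1.05 ± 0.21) and Rpl22l1 (-1.02 ± 0.21). Akr1c21, with a mean under 5 CPM before TMM scaling, and the laminin gene Lama1 (-1.10 ± 0.32, 20 of 28 hCG libraries below the Ctrl median) fell outside this ranking. The step from the last ranked member to the first gene below it was thus from -1.13 to -1.05, with no gap wider than the standard errors.

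Whether the 8 genes vary together from library to library within a group was not used in choosing them. A fit of every gene on the log2 level of Tspan8, with the group as a term, was therefore tested across 10847 genes (limma, Benjamini-Hochberg adjustment). Higher Tspan8 went with higher levels of 6 of the other 7 members, where 8.38% of all genes had a positive slope past the threshold and 7.80% a negative one. The slope, the change in a gene's log2 level per unit of log2 Tspan8, was 1.53 ± 0.23 for BC051665 (SE, adjusted p = 2.79e-06), 0.98 ± 0.09 for Plac1 (adjusted p = 6.38e-12) and 0.66 ± 0.08 for Gulp1 (adjusted p = 8.01e-10). For the enzyme gene Gsta1 it was 0.62 ± 0.15 (adjusted p = 0.00160) and for the stefin gene Csta1 0.39 ± 0.08 (adjusted p = 6.20e-04). Adam19 passed with 0.31 ± 0.10 (adjusted p = 0.0357), and Akr1c21 had a slope of similar size that did not pass, 0.31 ± 0.16 (adjusted p = 0.181). The median slope of all genes tested was -0.01.

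Plac1 and BC051665 had the steepest of all positive slopes that passed, ranks 2 and 1. A slope grows with a gene's own spread, so its rank does not measure how closely a gene follows Tspan8. By the p-value of the limma fit Plac1 ranked 3, Gulp1 14 and BC051665 66 among all genes. The Adam19 call did not hold without any 1 of 8 libraries (hCG libraries 2, 4, 5, 7, 22 and 23 and Ctrl libraries 7 and 19), with an adjusted p of up to 0.123, reached without hCG library 23. The other 5 calls held with each of the 56 libraries left out in turn, and also without the 5 hCG libraries with Xist and Y-linked transcripts, where Adam19 had an adjusted p of 0.270. The Adam19 call was also lost with a pseudocount of 5 (adjusted p = 0.0642) and with no filter on low values (adjusted p = 0.0595). With genes detected per library as a covariate, and likewise with the Y-linked sum and Xist, 6 of 7 passed.

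The relation depended on which member served as the anchor. With Gulp1 in place of Tspan8, 5 of the other 7 members passed, where 5.05% of all genes had a positive call. With Plac1 and with BC051665 4 passed (5.35% and 3.86% of all genes), and with Gsta1 and with Csta1 2 passed (1.41% and 4.59%). With Adam19 and with Akr1c21 0 passed, where 0.00922% and 0.0277% of all genes did and 834 and 1581 genes had an unadjusted p under 0.05 in limma.

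**Figure D2:**
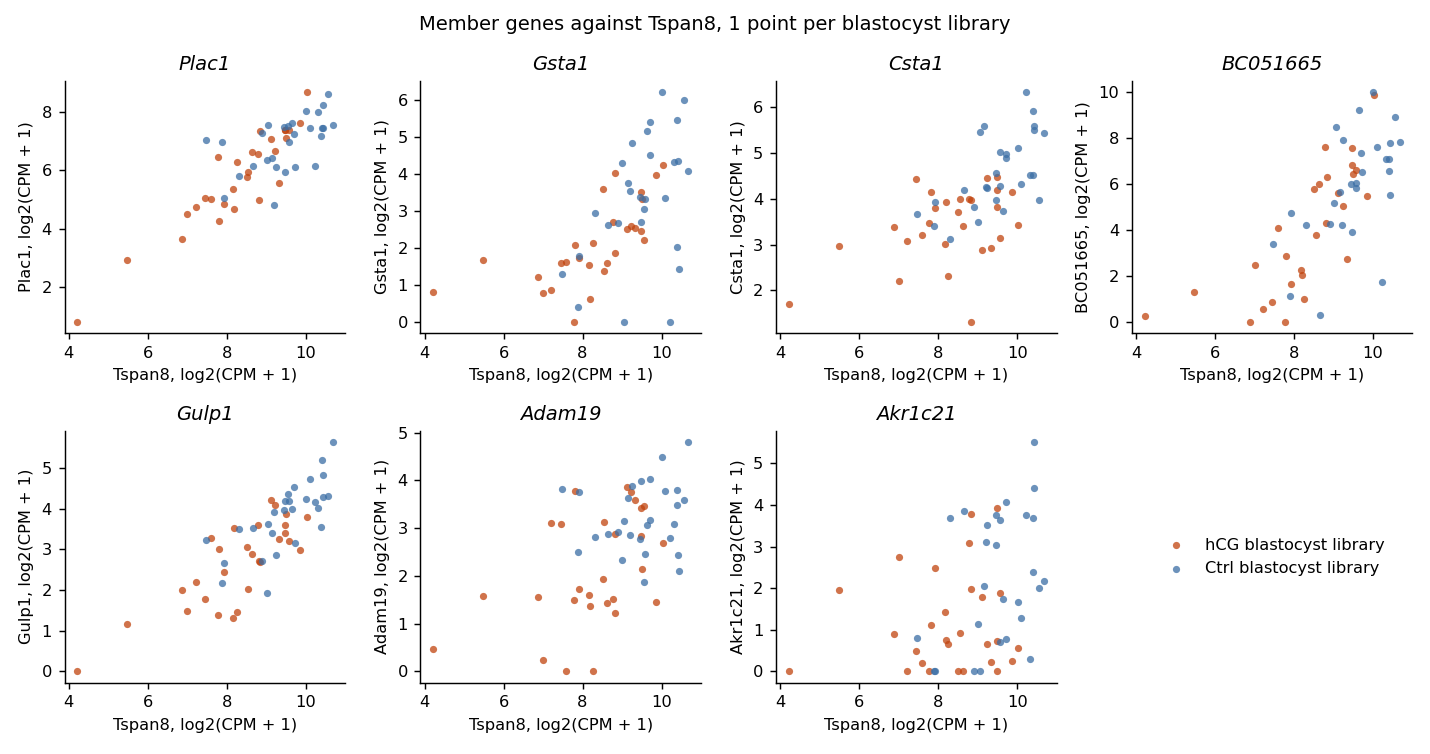
Level of each of the other 7 genes against Tspan8, both as log2(CPM + 1), with 1 point per blastocyst library (28 hCG, 28 Ctrl). Points of both groups rise together for Plac1, BC051665 and Gulp1 (slopes of 0.98, 1.53 and 0.66 after scaling), while those of Akr1c21 scatter (0.31 ± 0.16).

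Within the groups taken alone the slopes were as follows. Over the 28 hCG libraries 4 of 7 members passed, where 8.32% of all genes had a positive and 6.37% a negative call. Over the 28 Ctrl libraries 3 of 7 passed, where 1.16% of all genes had a positive call and 2.08% a call in either direction. Plac1 had a slope of 1.17 ± 0.09 in hCG (adjusted p = 1.06e-10) and 0.58 ± 0.15 in Ctrl libraries (adjusted p = 0.0404). Gulp1 had 0.64 ± 0.09 in hCG and 0.72 ± 0.13 in Ctrl libraries and passed in both (adjusted p = 1.05e-05 in hCG and 0.00402 in Ctrl). BC051665 (1.57 ± 0.26, adjusted p = 1.99e-04) and Gsta1 (0.57 ± 0.12, adjusted p = 9.12e-04) passed over hCG libraries alone, with slopes over Ctrl libraries of 1.42 ± 0.43 for BC051665 and 0.72 ± 0.31 for Gsta1. Csta1 passed over Ctrl libraries (0.63 ± 0.14, adjusted p = 0.00923), with 0.27 ± 0.10 over hCG libraries (adjusted p = 0.0646). The difference of the slopes between the groups was tested as an interaction in limma, and 0 of 10847 genes passed after adjustment, with 1239 at an unadjusted p under 0.05. Plac1 had the smallest p of the members, an hCG slope steeper by 0.59 ± 0.18 (p = 0.00167, adjusted p = 0.174). Differences of the other sign were fitted for Akr1c21 (-0.68 ± 0.33) and Csta1 (-0.36 ± 0.18). A difference in slope was not shown for any member, and the standard errors are too wide to show that the slopes are alike.

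**Figure D3:**
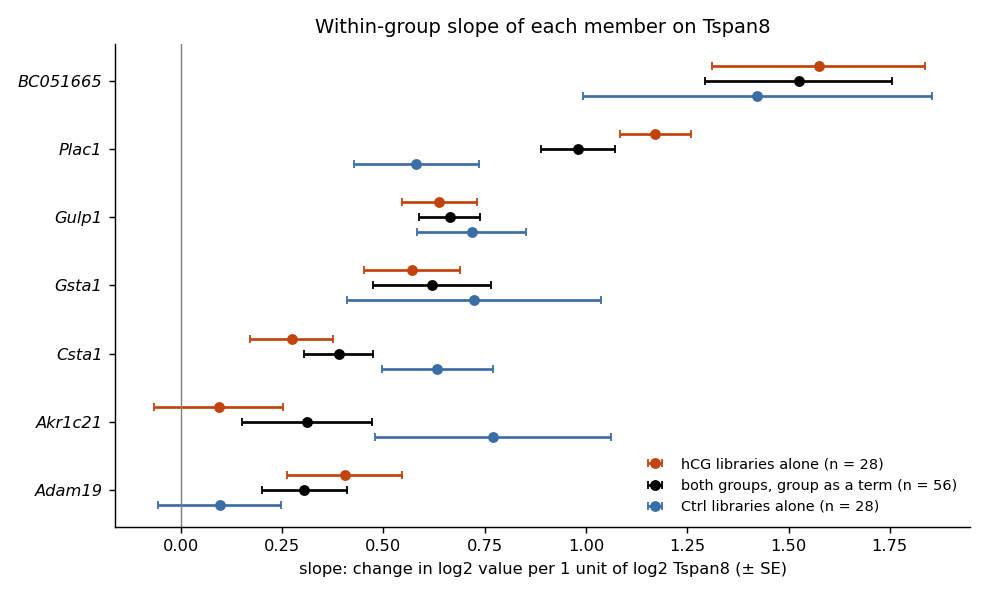
Slope of each gene on Tspan8 with its standard error, for hCG libraries alone (n = 28), both groups together (n = 56) and Ctrl libraries alone (n = 28), from top to bottom in each row. BC051665 is steepest at 1.53 and Plac1 next at 0.98 in the fit of both groups. The error bars of hCG and Ctrl are apart for Plac1 (1.17 ± 0.09 and 0.58 ± 0.15), Csta1, Akr1c21 and, narrowly, Adam19. Bars of 1 SE are not a test, and no difference of slopes passed after adjustment.

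Each pair of the 8 genes was also correlated within each group, 28 pairs in each, with permutation p-values adjusted over the 56 correlations. Over hCG libraries 27 of 28 pairs were positive and 15 passed, with a median Pearson's r of 0.45. Over Ctrl libraries 24 of 28 were positive and 8 passed, with a median of 0.30. All calls were of positive correlations. By Spearman's rho 11 pairs passed in hCG and 8 in Ctrl, and with the 2 libraries farthest from the median of the first gene left out 10 passed in hCG and 7 in Ctrl. Without hCG library 23 alone, 10 hCG pairs passed. The difference in the number of pairs between the groups was not tested. Pairs drawn from all genes were not correlated, so no general share stands beside these counts. In the slope fits on Tspan8, 14.7% of all genes passed in either direction over hCG libraries alone and 2.08% over Ctrl libraries alone.

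Tspan8 and Plac1 were the closest pair, with r = 0.92 over 28 hCG libraries (rho = 0.89, permutation p = 1e-05 for each, the smallest that 100000 resamples can give, adjusted p = 1.12e-04) and r = 0.86 without the 2 farthest libraries. Over Ctrl libraries their r was 0.56 (permutation p = 0.00174, adjusted p = 0.00650; rho = 0.64, permutation p = 2.80e-04) and 0.69 without the 2 farthest. In Ctrl the closest pair was Tspan8 and Gulp1, with r = 0.74 (permutation p = 2e-05, adjusted p = 1.60e-04; rho = 0.82, permutation p = 1e-05) and 0.72 without the 2 farthest.

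A set of 5 genes, Tspan8, Plac1, Gsta1, BC051665 and Gulp1, was singled out after these values were seen. Of the 10 pairs among them 10 passed over hCG libraries (r of 0.60 to 0.92) and 6 over Ctrl libraries (0.14 to 0.74). Among the 18 pairs that involve Csta1, Adam19 or Akr1c21, 5 passed over hCG libraries (-0.23 to 0.51) and 2 over Ctrl libraries (-0.17 to 0.66). Without the 5 hCG libraries with Xist and Y-linked transcripts, 10 of 28 hCG pairs passed over the remaining 23 libraries, and all 10 were the pairs among the 5 genes (0.53 to 0.93). Csta1 and Gulp1 passed in both groups, with r = 0.51 in hCG (permutation p = 0.00525, rho = 0.48, permutation p = 0.0115) and 0.62 in Ctrl (permutation p = 4.60e-04, rho = 0.67, permutation p = 2.10e-04). Without the 2 farthest libraries they had r = 0.47 and did not pass in hCG (adjusted p = 0.0546). Gsta1 and BC051665 had r = 0.78 in hCG (permutation p = 1e-05, rho = 0.78, permutation p = 1e-05) and 0.64 in Ctrl (permutation p = 1.80e-04, rho = 0.66, permutation p = 2.40e-04), and without the 2 farthest 0.75 in hCG and 0.77 in Ctrl. Adam19 was in 3 called pairs in hCG and 0 in Ctrl, and Akr1c21 in 0 pairs in either group.

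**Figure D4:**
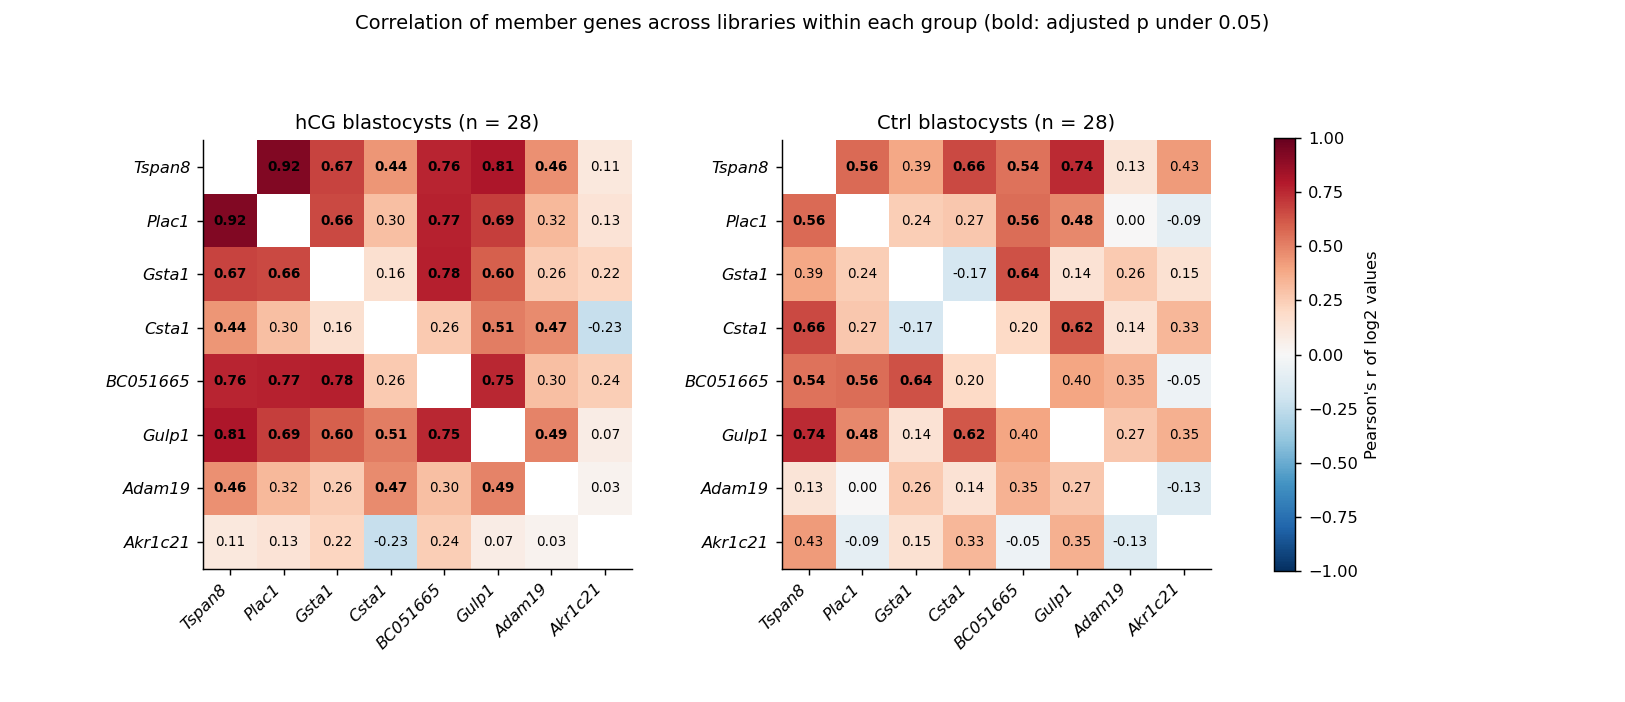
Pearson's r of log2 levels for each pair of the 8 genes over 28 hCG libraries (left) and 28 Ctrl libraries (right), with red for positive and blue for negative values and bold figures for an adjusted p under 0.05. Bold cells number 15 of 28 pairs in hCG and 8 of 28 in Ctrl, and the row of Akr1c21 has none in either.

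Tspan8 itself showed no relation to library depth that passed: over 4 relations, the strongest was with genes detected in Ctrl libraries (r = -0.40, permutation p = 0.0349, adjusted p = 0.140; rho = -0.34, permutation p = 0.0793; -0.19 without the 2 farthest libraries). Over hCG libraries its r with genes detected was 0.15 (permutation p = 0.458; rho = 0.24, permutation p = 0.209) and with estimated reads 0.31 (permutation p = 0.103; rho = 0.37, permutation p = 0.0569).

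Libraries differed in how many of the 8 genes were low. In hCG library 23 all 8 genes were among the lowest 14 of the 56 libraries, with 17.6 CPM of Tspan8, 0.757 CPM of Plac1 and 0 of Gulp1. Of 28 libraries per group, 7 hCG libraries and 1 Ctrl library (Ctrl 19) had 6 or more of the 8 genes among the lowest 14, and 5 of the 23 hCG libraries without both Xist and Y-linked transcripts did. At the other end, 1 hCG library (hCG 16) and 14 Ctrl libraries had 4 or more among the highest 14. Genes chosen for being lower in hCG place hCG libraries low and Ctrl libraries high, so nothing is read from the difference between the groups in these counts. Library 23 is also 1 of the 5 with Xist and Y-linked transcripts, and it held the lowest trophectoderm marker sum (2300 CPM) and the highest inner cell mass marker sum (740.7 CPM) of the hCG group. The part of these markers in the low values was not tested.

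Since Plac1 is X-linked and embryos of both sexes were present, each gene was also fitted on the summed Y-linked level within groups. None of the 8 passed (limma, Benjamini-Hochberg adjustment), where 2.07% of 10844 genes did, 1.51% in the negative direction. In libraries at the median Y-linked level, Plac1 differed from libraries with none by 0.07 ± 0.40 on the log2 scale (adjusted p = 0.971). The smallest adjusted p-values were those of Gulp1 (0.57 ± 0.26, adjusted p = 0.343), Csta1 (0.49 ± 0.23, adjusted p = 0.354) and Tspan8 (0.61 ± 0.32, adjusted p = 0.433), all in the direction of higher levels with Y-linked transcripts.

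Other trophectoderm genes were read from lists of known regulators and structural genes, with the 8 members left out. Of 16 regulators tested, 6 rose with Tspan8 within groups and 3 fell, shares of 37.5% and 18.8% where 8.38% and 7.80% of all genes did. Gata2, a GATA factor of the trophoblast, had a slope of 0.57 ± 0.06 (adjusted p = 9.41e-11), Elf5, an Ets factor of later trophoblast, 0.64 ± 0.11 (adjusted p = 1.65e-05) and Tfap2a 0.40 ± 0.06 (adjusted p = 5.07e-06). Eomes (0.32 ± 0.06), the growth factor receptor gene Fgfr2 (0.20 ± 0.05) and Id2 (0.31 ± 0.04) were the other 3. Tead4 (-0.21 ± 0.04), Tfap2c (-0.26 ± 0.06) and Arid3a (-0.36 ± 0.10) went the other way. Of the early regulators Cdx2, Gata3 and Tead4, Tead4 is thus among those that fell, and Cdx2 (-0.01 ± 0.07) and Gata3 (0.04 ± 0.07) had slopes near 0 that did not pass.

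Between the groups, 5 of these 16 regulators were called lower in hCG and 1 higher, where 7.57% of all genes were lower and 8.68% higher. Gata2 averaged 35.8 ± 19.4 CPM in hCG and 56.6 ± 18.5 CPM in Ctrl (-0.88 ± 0.21), and Tfap2a 18.8 ± 9.84 CPM in hCG and 31.7 ± 18.2 CPM in Ctrl (-0.77 ± 0.18). Eomes averaged 43.6 ± 21.7 CPM in hCG and 72.3 ± 45.4 CPM in Ctrl (-0.69 ± 0.17), and Fgfr2 44.4 ± 11.8 CPM in hCG and 64.8 ± 26.4 CPM in Ctrl (-0.53 ± 0.12). Id2 was the other one called lower (-0.45 ± 0.13), and Cited1 was higher (0.70 ± 0.22). The list's median was 0.07, against 0.02 for all genes, so its members went both ways. Adjusted p-values of these 6 in the limma fit were 0.00211 to 0.0240.

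Of 24 epithelial genes tested, 3 rose with Tspan8 and 1 fell, where 8.38% of all genes rose and 7.80% fell. They were the fatty acid carrier gene Fabp3 (0.40 ± 0.05), Ezr (0.29 ± 0.07), Epcam (0.11 ± 0.03) and the glucose transporter gene Slc2a1 (-0.34 ± 0.08). Between groups 3 were lower, among them the E-cadherin gene Cdh1 (306 ± 78.7 CPM in hCG and 360 ± 91.5 CPM in Ctrl), and 1 was higher, the water channel gene Aqp3 (154 ± 57.0 CPM in hCG and 107 ± 61.8 CPM in Ctrl). Of 29 giant cell and placental genes 8 passed the low-value filter, and of those 8, 1 rose with Tspan8 and 3 fell (37.5%), where 8.38% of all genes rose and 7.80% fell. Mbnl3 was lower in hCG (77.8 ± 43.0 CPM in hCG and 125 ± 71.0 CPM in Ctrl) and rose with Tspan8 (0.64 ± 0.06, adjusted p = 8.08e-12), while Mmp9, a protease of giant cells, was higher (3.76 ± 3.51 CPM in hCG and 1.71 ± 2.67 CPM in Ctrl) and fell with Tspan8 (-0.41 ± 0.11). The other 2 that fell with Tspan8 were Plet1 (-0.21 ± 0.08, adjusted p = 0.0463) and Ppp2r2c (-0.27 ± 0.09, adjusted p = 0.0217).

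Markers of the inner cells went both ways with Tspan8, 4 positive and 3 negative of 17 (23.5% and 17.6%, against 8.38% and 7.80% of all genes). The pluripotency genes Nanog (-0.28 ± 0.08, adjusted p = 0.00719) and Pou5f1 (-0.32 ± 0.09, adjusted p = 0.00699) fell with it, and Dppa5a (0.23 ± 0.04), Fgf4 (0.48 ± 0.12), Tdgf1 (0.58 ± 0.14) and Upp1 (0.68 ± 0.10) rose. Nanog was higher in hCG (242 ± 122 CPM in hCG and 160 ± 86.0 CPM in Ctrl, 0.58 ± 0.19) and Dppa5a lower (7533 ± 2009 CPM in hCG and 9796 ± 3024 CPM in Ctrl, -0.41 ± 0.11). Of 14 primitive endoderm genes tested, the laminin genes Lama1 (0.72 ± 0.11) and Lamc1 (0.19 ± 0.07) rose with Tspan8. In hCG, Lama1 (11.96 ± 9.58 CPM in hCG and 30.3 ± 30.6 CPM in Ctrl), Lamb1 (40.4 ± 23.5 CPM in hCG and 68.2 ± 55.8 CPM in Ctrl) and Lrp2 (720 ± 133 CPM in hCG and 925 ± 320 CPM in Ctrl) were lower and Amn was higher (3.86 ± 3.58 CPM in hCG and 1.24 ± 1.81 CPM in Ctrl). Of 6 uterine, stromal and blood genes tested, Wfdc2 rose with Tspan8 (0.34 ± 0.05) and H2-Ab1 was higher in hCG (20.9 ± 10.3 CPM in hCG and 11.4 ± 8.78 CPM in Ctrl). Between groups 5.88% of the 17 inner cell genes were called each way. Of the 14 primitive endoderm genes 21.4% were lower and 7.14% higher, and of the 6 uterine, stromal and blood genes 16.7% were higher. Over all genes 7.57% were lower and 8.68% higher. Positive slopes were 14.3% of the primitive endoderm list and 16.7% of the uterine, stromal and blood list. The part of any of these cell types in the falls of the 8 genes was not tested.

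The relatives of the 8 genes gave a second set of lists. Of 20 tetraspanin genes tested besides Tspan8, Upk1b, which encodes a uroplakin, was lower in hCG (10.1 ± 6.28 CPM in hCG and 17.04 ± 7.63 CPM in Ctrl, -0.90 ± 0.22) and rose with Tspan8 (0.56 ± 0.07, adjusted p = 2.54e-08), with r = 0.82 over hCG and 0.55 over Ctrl libraries. Tspan4 was higher (28.8 ± 11.4 CPM in hCG and 16.6 ± 8.46 CPM in Ctrl) and Cd9 had a positive slope of 0.10 ± 0.04. Of the tetraspanin genes 5% were thus called each way between groups, against 7.57% lower and 8.68% higher over all genes. Positive slopes were 10% of the list, against 8.38% of all genes. Of 20 glutathione transferase genes, 7 rose with Tspan8 and 1 fell, 35% and 5% of them, against 8.38% and 7.80% of all genes. The 7 included Gsta4 (0.43 ± 0.04), the microsomal Mgst3 (0.53 ± 0.06) and Gstk1 (0.48 ± 0.09). Between groups Gsta4 was lower in hCG (120 ± 46.5 CPM in hCG and 174 ± 55.3 CPM in Ctrl) and Gstm6 higher (11.7 ± 6.95 CPM in hCG and 6.77 ± 4.25 CPM in Ctrl), 5% of the list each way, against 7.57% lower and 8.68% higher over all genes.

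Among 7 aldo-keto reductase genes, 3 rose with Tspan8 (42.9%, against 8.38% of all genes), Akr1c13 (0.71 ± 0.16), Akr1b8 (0.23 ± 0.04) and Akr1e1 (0.20 ± 0.06), and Akr1b8 was lower in hCG (1172 ± 308 CPM in hCG and 1530 ± 427 CPM in Ctrl). It was the only one called lower, 14.3% of the list against 7.57% of all genes. The 3 stefin and cystatin genes tested were not called between groups, and of the 2 most abundant Cstb averaged 383 ± 75.6 CPM in hCG and 404 ± 99.6 CPM in Ctrl (-0.10 ± 0.09) and Cst3 334 ± 61.7 CPM in hCG and 346 ± 72.8 CPM in Ctrl (-0.07 ± 0.09). Cstb rose with Tspan8 (0.14 ± 0.04, limma adjusted p = 0.00781), 33.3% of the list against 8.38% of all genes. Of 5 cysteine cathepsin genes, the proteases that stefins inhibit, 2 were higher in hCG, against 8.68% of all genes: Ctsz (119 ± 53.2 CPM in hCG and 64.1 ± 33.2 CPM in Ctrl, 0.90 ± 0.17) and Ctsb (501 ± 136 CPM in hCG and 377 ± 126 CPM in Ctrl, 0.42 ± 0.13). Ctsz fell with Tspan8 (-0.32 ± 0.07, limma adjusted p = 3.51e-04), 20% of the list against 7.80% of all genes. Of 8 ADAM and inhibitor genes, Adam15 was higher (21.8 ± 8.11 CPM in hCG and 15.4 ± 9.33 CPM in Ctrl) and Adam10 lower (66.3 ± 16.2 CPM in hCG and 81.0 ± 22.4 CPM in Ctrl), and the inhibitor genes Timp1 (0.47 ± 0.12) and Timp3 (0.33 ± 0.08) rose with Tspan8. Of 16 engulfment genes, Crk (54.1 ± 15.02 CPM in hCG and 86.1 ± 31.2 CPM in Ctrl) and Rac1 (88.3 ± 17.5 CPM in hCG and 123 ± 42.9 CPM in Ctrl) were lower and Gas6, a ligand that bridges dying cells to their eaters, was higher (9.00 ± 6.23 CPM in hCG and 4.54 ± 6.12 CPM in Ctrl). List values are means ± SD over 28 libraries per group.

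Without the 5 hCG libraries with Xist and Y-linked transcripts, 25 of the 31 list genes called between groups and 40 of the 48 called on Tspan8 kept their calls and directions. The regulators again had 5 genes lower and 1 higher of 16, where 4.4% of all genes were then lower and 6.11% higher, and 6 positive and 3 negative slopes, where 6.72% and 7.31% of all genes were called. Of the genes named above, Nanog (adjusted p = 0.129), Mbnl3 (0.0687), Lamb1 (0.0914), Cdh1 (0.0832) and Adam10 (0.134) no longer passed between groups, and Amn no longer passed the low-value filter. The glutathione transferases had 4 positive slopes of 20 in place of 7, and Epcam, Akr1e1 and Plet1 lost their calls on Tspan8. Of the 24 epithelial genes 3 were then higher and 2 lower in hCG, in place of 1 higher and 3 lower. Among the 3 stefin and cystatin genes 2 had positive slopes that passed, in place of 1.

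The neighbours of the 8 genes on their chromosomes were looked up after the ranking had been seen. Within 100 kb of the members lay 65 annotated genes, of which 16 were tested, 4 called lower and 1 higher in hCG, where 7.57% of all genes tested were lower and 8.68% higher. The 4 were Gm3776 (median 1.44 CPM in hCG and 6.00 CPM in Ctrl) and Gsta4 beside Gsta1, 4930486L24Rik (10.4 CPM in hCG and 22.2 CPM in Ctrl) beside BC051665, and C430049B03Rik (17.6 CPM in hCG and 28.8 CPM in Ctrl) beside Plac1. All 4 also had positive slopes on Tspan8: 0.56 ± 0.12, 0.43 ± 0.04, 0.52 ± 0.11 and 0.39 ± 0.06. Of the 16, 7 had a positive and 3 a negative slope that passed, where 8.38% of all genes had a positive and 7.80% a negative one. Over libraries, Gsta1 and Gm3776 had r = 0.72 in hCG and 0.71 in Ctrl, and BC051665 and 4930486L24Rik 0.44 in hCG and 0.38 in Ctrl, given as descriptions. Gsta1 belongs to a cluster of similar genes on chromosome 9, as do Csta1 and Akr1c21 on theirs, so reads may be split among copies by the counting, and the values of these genes are uncertain to that extent. Whether reads are shared between Gsta1 and Gm3776, or between BC051665 and 4930486L24Rik, was not tested.

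To find the genes most like the 8 as a group, every gene with a mean of at least 5 CPM was correlated, within groups, with the mean deviation of the 8 members. Of 9188 genes the closest was Lcp1, the actin-bundling protein plastin (r = 0.83 over 56 libraries), followed by the glycosphingolipid enzyme gene B3gnt5 (0.83), the splicing regulator gene Mbnl3 (0.79), the galectin gene Lgals1 (0.79) and the sialyltransferase gene St3gal6 (0.78). Then came the myosin light chain gene Myl12b (0.77), Ccdc42 (0.77), the peptide transporter gene Slc15a2 (0.76), Gsta4 (0.76) and Decr1 of fatty acid oxidation (0.76). The median over all genes was -0.01, and 84 genes exceeded 0.6. These libraries share depth and RNA quality with the members measured in them. Between groups, 9 of the 10 were called lower in hCG in limma, Decr1 being the exception (-0.33 ± 0.12, adjusted p = 0.0567), where 7.57% of all genes were. The 10 were picked for likeness to genes chosen as lower in hCG, so this count is a description. Lgals1 averaged 1356 ± 819 CPM in hCG and 2025 ± 789 CPM in Ctrl (-0.86 ± 0.28), Lcp1 158 ± 107 CPM in hCG and 239 ± 134 CPM in Ctrl (-0.78 ± 0.28) and Slc15a2 186 ± 128 CPM in hCG and 280 ± 166 CPM in Ctrl (-0.82 ± 0.28).

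The other materials were not used in choosing the genes. In metaphase II oocytes only Plac1 of the 8 passed the low-count filter. Its counts in the 6 hCG libraries were 24, 11, 14, 24, 0 and 8, against 9, 11, 115, 70, 44 and 36 in the 6 Ctrl libraries, or 2.91 ± 2.09 CPM in hCG and 10.4 ± 8.09 CPM in Ctrl (SD, n = 6 each). The ranges overlapped, with 4 Ctrl libraries above every hCG library in CPM. The log2 fold change was -1.84 ± 0.60 and did not pass (edgeR quasi-likelihood test, adjusted p = 0.0970), where 3.99% of 9565 genes were called and 2.67% were called lower. By DESeq2 it was -1.83 and passed (adjusted p = 0.0320), and with single libraries left out the edgeR adjusted p ran from 0.0531 to 0.203.

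The other 7 genes were near the limit of detection in oocytes. Tspan8 had 4 to 19 counts per hCG library (61 in all) and 0 to 19 per Ctrl library (41 in all), and Akr1c21 0 to 14 in hCG (33 in all) and 0 to 12 in Ctrl, all 12 in 1 library. Gulp1 summed to 9 counts in hCG and 8 in Ctrl, BC051665 to 4 in hCG and 3 in Ctrl, and Gsta1, Csta1 and Adam19 to 0 in hCG and 1, 1 and 3 in Ctrl. A count of 0 allows 3 counts, 0.561 to 0.719 CPM in an hCG oocyte library and 0.433 to 1.26 CPM in a Ctrl oocyte library.

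In offspring dDG, a neural tissue, Adam19 and Gulp1 passed the filter. Adam19 had 166, 134, 167, 121, 150 and 123 counts in hCG and 188, 139, 137, 122, 89 and 165 in Ctrl libraries, or 8.54 ± 1.33 CPM in hCG and 8.38 ± 1.79 CPM in Ctrl, so the groups lay over each other (0.04 ± 0.15, edgeR adjusted p = 0.897). Gulp1 had 15, 27, 34, 29, 15 and 75 counts in hCG and 9, 9, 14, 23, 10 and 37 in Ctrl libraries, or 1.92 ± 1.29 CPM in hCG and 1.01 ± 0.64 CPM in Ctrl (0.93 ± 0.44, edgeR adjusted p = 0.216). The highest library of each group stood above the rest of it, and the ranges overlapped. Without hCG library 6 the fold change of Gulp1 was 0.49. Of 13874 dDG genes, 7.86% were called, 4.67% higher and 3.19% lower. Tspan8 summed to 11 counts in hCG and 9 in Ctrl, Gsta1 to 1 in hCG and 0 in Ctrl, and Plac1, Csta1, BC051665 and Akr1c21 to 0 in both groups, which allows up to 0.173 to 0.188 CPM in an hCG and 0.168 to 0.200 CPM in a Ctrl library.

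**Figure D5:**
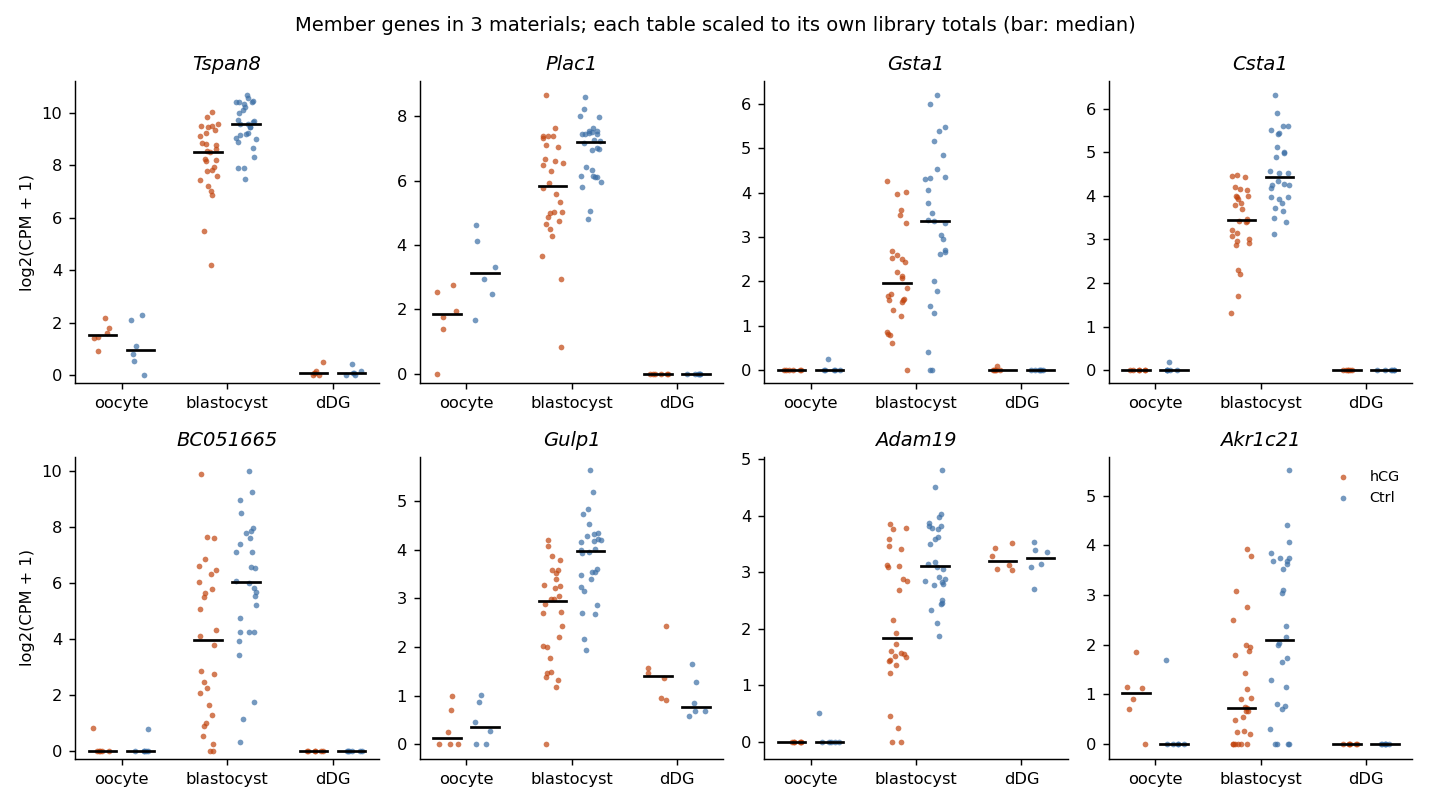
Levels of the 8 genes as log2(CPM + 1) in oocyte, blastocyst and dDG libraries, hCG left of Ctrl within each material, with 1 point per library and a bar at the median. Each table was scaled to its own totals, so levels across materials are set side by side and not tested; Adam19 (8.54 CPM in hCG and 8.38 CPM in Ctrl) and Gulp1 stand above 0 in dDG, and Plac1 in oocytes (2.91 CPM in hCG and 10.4 CPM in Ctrl).

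Across materials the order of levels differed among the 8 genes. Gsta1, Csta1 and BC051665 had medians of 0 CPM in oocytes and dDG of both groups and were seen in blastocysts. Tspan8 had medians of 1.90 CPM in hCG and 0.952 CPM in Ctrl oocytes, against 368 CPM in hCG and 757 CPM in Ctrl blastocysts. Akr1c21 had medians of 1.04 CPM in hCG and 0 CPM in Ctrl oocytes, against 0.660 CPM in hCG and 3.30 CPM in Ctrl blastocysts. Adam19 had medians of 8.23 CPM in hCG and 8.58 CPM in Ctrl dDG, against 2.57 CPM in hCG and 7.65 CPM in Ctrl blastocysts. Tables were made separately, so these orders carry no test.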

How the data were processed

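RNA libraries of blastocysts, oocytes and dDG (80 of 124 samples) were used, and the 44 bisulfite libraries were not analysed here. The authors' deposited oocyte table holds counts per gene symbol, and the deposited dDG table holds expected counts per transcript, summed by symbol and rounded. The deposited blastocyst table holds a signal, estimated counts times a factor per library whose basis is not given in the sources used here. It was divided by the column total to give CPM, and by the size of a library's smallest step to estimate reads for depth, filter and TMM factors. Per the submitters' processing notes, SAMtools 1.19.1, HTSeq 0.12.4, Bowtie2, TopHat, STAR 2.7.6a, Trimmomatic 0.32 and Trim Galore 0.6.4 were used with builds mm10 and GRCm38, with no role for each table.

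Blastocysts were fitted with limma 3.58.1 (trend, robust; log2 of TMM CPM + 1; filterByExpr with 10 and 15 counts), and oocytes and dDG with edgeR 4.0.16 quasi-likelihood tests in R 4.3.3, with DESeq2 1.42.0 as an alternative. All p-values are two-sided. Adjustment was by Benjamini-Hochberg over all genes of a fit, with a threshold of 0.05 on the adjusted p. For correlations it was over the pair correlations of both groups, or over the relations of Tspan8 to library depth. Permutation p-values and the p of the Plac1 slope difference are unadjusted unless called adjusted. Correlations used 100000 resamples (NumPy and SciPy). Scripts were tested on simulated data. Replicate numbers did not pair the samples. Alternatives were other scalings, pseudocounts of 0.5 and 5, no filter, covariates, left-out libraries and other anchors for the slope.

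The 8 members, the lists and the rules were chosen with earlier results of these data known. Named genes were the 8, up to 4 called genes of each list in order of p (where a list had none, its 2 highest in CPM), the 10 most alike, and those beside the members in the ranking. Further list genes are given by their slopes, and these and the chromosome neighbours were named after their values were seen. Some genes that these rules name are not reported here.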

Additional observations from a re-analysis of the deposited data

Results flagged for a closer look

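In groups of 6 libraries, 1 library far from the other 5 was looked for among the members with at least 10 counts in the group (11 groups, Dixon's test at its 95% critical value). Chance passes that value in about 1 in 20 groups where values are normally distributed, a rate that does not apply to the few counts below. In oocytes, Akr1c21 had 2.25 CPM (12 counts) in Ctrl library 6 and 0 in the other 5 Ctrl libraries. With those 5 at 0 any value above 0 would pass, so this flag is a description. In dDG, Tspan8 had 0.426 CPM (7 counts) in hCG library 4, above the other 5 hCG libraries.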

How the results depend on the processing

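Each of the 8 members was lower in hCG blastocysts under all 12 other settings of that fit, between -1.24 and -0.81 for Tspan8 and between -2.40 and -1.11 for BC051665. The threshold for a call was passed by 4 of 8 without the 5 libraries with Xist and Y-linked transcripts, where 4.4% of all genes were lower. It was passed by 5 with values not scaled to the total and by 6 with edgeR and with no filter. With genes detected as a covariate, with the replicate block and without hCG library 23 it was passed by 7, and otherwise by 8. The number of genes called in the whole blastocyst table (942 higher, 821 lower) moved most with deposited values not scaled to the total (4197 higher, 23 lower, so 99.5% of calls higher against 53.4%), where the median gene shifted by 0.40 and the members fell by 0.77 to 1.65. It was 337 higher and 437 lower with genes detected as a covariate, 607 higher with edgeR on estimated reads, and 480 lower without the 5 libraries with Xist and Y-linked transcripts. Without hCG library 23 it was 831 higher and 722 lower.

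For the slope on Tspan8, genes called numbered 1755, against 226 in Ctrl libraries alone (3 members) and 1540 without hCG library 23, and 5 to 6 members were called as each library was left out. With Csta1 as the anchor 1032 genes and 2 members passed, Gsta1 had a slope of -0.071 (adjusted p = 0.872), and the cause was not tested. With Plac1, Gulp1 or BC051665 as the anchor 4, 5 and 4 members passed, with Gsta1 2, and with Adam19 or Akr1c21 0. The difference of the slopes of BC051665 turned from 0.15 to -0.036 with a pseudocount of 5 and to -0.35 with genes detected as a covariate, and was never called. Pairs called ran from 10 to 16 in hCG and 7 to 10 in Ctrl as each library was left out.

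In oocytes 382 genes were called, 703 by DESeq2 and 247 (without Ctrl library 3) to 657 (without Ctrl library 4) with 1 library left out. In dDG 1091 were called, and 649 to 1230 with 1 library left out, where Adam19 turned from 0.04 to -0.037 without hCG library 1, -8.07e-05 without hCG library 3 and -0.059 without Ctrl library 5, and was 0.1205 at most (without Ctrl library 1), never called. Runs without single blastocyst libraries, the anchors other than Tspan8 and Csta1 and the pairs without the 5 libraries were chosen after seeing the data. Replicate numbers did not pair the samples: 3 of 28 blastocyst, 2 of 6 oocyte and 0 of 6 dDG number pairs correlated above 0.1. A fit with the replicate block called 689 genes and 5 members for the slope on Tspan8, 850 higher and 690 lower between blastocyst groups, 336 genes in oocytes and 583 in dDG.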
